A study of Mus musculus with 8 samples.

Results

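Osteoclasts, the cells that resorb bone, also send signals that act on the bone-forming osteoblasts, and 8 genes for such coupling factors were followed here: Sema4d, Sphk1, Slit3, Efnb2, Pdgfb, Ctf1, Lif and Cthrc1. They were taken by name from the 46517 genes of the deposited table for their known role, and earlier results of these data were known when they were listed. All 8 genes were found in the table. Of these, 6 counted as expressed, meaning that 4 or more libraries had a normalized count of 10 or higher, and the other 2, Slit3 and Ctf1, did not.

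Each of the 8 libraries came from the osteoclast culture of a single mouse, 4 of them Elmo1-/- and 4 Elmo1+/-. ELMO1 is a cytoplasmic protein that works with DOCK proteins to activate the small GTPase Rac. The controls carried 1 intact copy of Elmo1, and although their titles read WT their genotype label is Elmo1+/-, so no wild-type group was available for comparison. The deletion was present in every cell of the Elmo1-/- animals rather than in osteoclasts alone. Femoral marrow cells of mice aged 6 to 8 weeks were plated for 16 h, and the cells still in suspension were moved to medium with 10% L929-conditioned medium, which supplies macrophage colony-stimulating factor. Osteoclasts were then formed over 7 days with 50 ng/ml GST-RANKL. The methods, but not the labels, add a step between these in which the cells that had attached were collected and replated. All 8 cultures carry the same description. No sorting of the cultures before RNA extraction is described, so mononuclear cells that had not fused may be included. A difference in such a bulk sample can come from fewer cells of a type or from less RNA per cell, and these cannot be told apart.

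Coupling is the process by which resorption at a site is followed by formation of bone at the same site. Some osteoclast signals favour the osteoblast. Examples are sphingosine 1-phosphate, the lipid made by sphingosine kinase, and the interleukin-6 family cytokines leukaemia inhibitory factor and cardiotrophin-1. Others hold it back, the textbook case being semaphorin 4D acting on plexin-B1. Not every gene of the group encodes a secreted protein. Semaphorin 4D and ephrin-B2 are membrane proteins, the former released by shedding, and sphingosine kinase 1 is an intracellular enzyme whose product has to be exported.

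Total reads recovered from the normalized counts ran from 20905502 to 40846651 per library. Elmo1 itself had 292 ± 17.6 normalized counts in the Elmo1-/- libraries and 1593 ± 150.3 in the Elmo1+/- libraries (SD, n = 4 each). The log2 fold change was -2.44 (SE 0.09, limma adjusted p = 8.4e-06), so the genotype labels were borne out in all 8 libraries. The first principal component took 62.3% of the variance and separated the libraries numbered 1 and 2 from those numbered 3 and 4 in both genotypes, with Elmo1-/- library 2 nearest to the middle. The methods state that 2 mice of each genotype were analysed in each of a pair of experiments, but no label ties the numbers to them. Values are therefore also given within these sets of libraries. All 10 osteoclast markers on the list used passed the filter, among them Ctsk, the collagen-degrading cathepsin K, at 69531 to 328160 normalized counts. Of the osteoblast and stromal markers, Alpl and Bglap reached at most 3.95 and 0.952 normalized counts, whereas Col1a1 had 238 to 555.

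The order of the genes by level was read per kilobase of annotated exon, since longer transcripts collect more reads. Sema4d was the highest, with 1552 ± 399 normalized counts per kilobase over the 8 libraries, above 91.7% of the tested genes. Pdgfb, which encodes the B chain of platelet-derived growth factor, a chemoattractant of mesenchymal cells, followed with 875 ± 343 and lay above 85.4% of tested genes. Both were therefore among the well-expressed genes of these cultures.

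Lif stood at 122 ± 53.5 normalized counts per kilobase, Efnb2 at 61.9 ± 29.9 and Sphk1 at 37.0 ± 21.3, above 44.8%, 32.0% and 23.9% of the tested genes. Cthrc1, for a secreted glycoprotein with a collagen triple helix repeat, was the lowest of the genes that passed the filter, with 15.8 ± 5.39, above 14.2%. Ctf1 (0.806 ± 0.852) and Slit3 (0.334 ± 0.167) came last on this scale. The ranges over libraries overlapped between neighbours in this order except between Pdgfb and Lif and between Cthrc1 and Ctf1. Within single libraries the order was more regular: Sema4d exceeded Pdgfb, and Pdgfb exceeded Lif, in 8 of 8 libraries, Lif exceeded Efnb2 in 8 of 8, Efnb2 exceeded Sphk1 and Sphk1 exceeded Cthrc1 in 7 of 8, and Ctf1 exceeded Slit3 in 5 of 8.

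**Figure D1:**
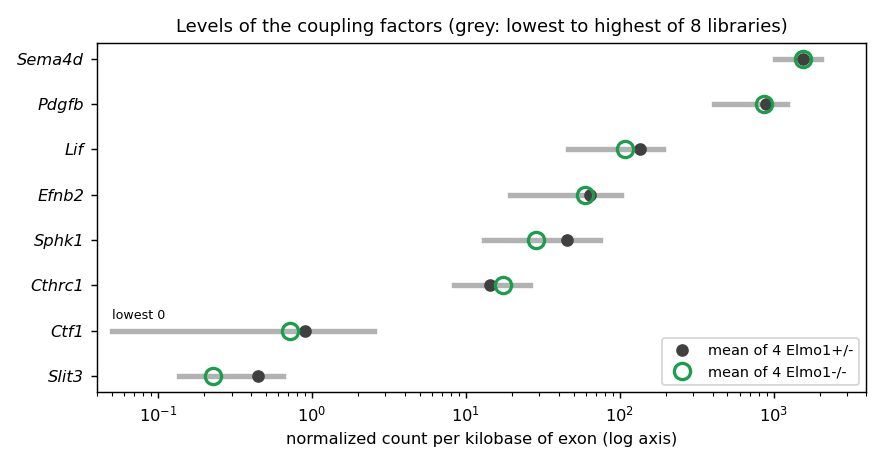
Level of each coupling factor as normalized count per kilobase of exon on a log axis, with the mean of the 4 Elmo1+/- libraries (filled), the mean of the 4 Elmo1-/- libraries (open) and the span of all 8 libraries (grey). Sema4d and Pdgfb sit at 1552 and 875 and Slit3 and Ctf1 below 1, and the genotype means of Sema4d and of Pdgfb nearly coincide.

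Slit3, for a secreted ligand of Robo receptors that guides axons and vessels, was counted with 2, 1, 1 and 2 reads in Elmo1-/- libraries 1 to 4 and with 2, 4, 2 and 2 reads in Elmo1+/- libraries 1 to 4. The sums were 6 and 10 reads. Ctf1, for cardiotrophin-1, had 3, 0, 1 and 2 reads in the Elmo1-/- libraries and 5, 1, 0 and 1 in the Elmo1+/- libraries, or 6 and 7 reads in all, with at least 1 read in 6 of 8 libraries. A library with no read still allows up to 3 reads, counting error only. At these depths a difference between the genotypes was not detectable for either gene, and neither was tested nor given a fold change. Ctf1 also overlaps Ctf2 on the opposite strand, and Ctf2 had 0 to 10.9 normalized counts.

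The 8 genes lie on 5 chromosomes of the mouse genome (GRCm38, GENCODE M21). Sphk1, Slit3 and Lif share chromosome 11, and Pdgfb and Cthrc1 share chromosome 15. The plus-strand genes are Sphk1 (chr11:116530925-116536674), Slit3 (chr11:35121224-35708507), Lif (chr11:4257557-4272514), Ctf1 (chr7:127712736-127718192) and Cthrc1 (chr15:39076932-39087121). On the minus strand are Sema4d (chr13:51685529-51793747), Efnb2 (chr8:8617434-8661242) and Pdgfb (chr15:79995874-80014977). Sema4d lies on chromosome 13 with Elmo1, 31.1 Mb away. All 8 are protein-coding. The 5′ part of Sphk1 overlaps the antisense gene Gm29292, and the 5′ part of Pdgfb the antisense gene Gm41361. Efnb2 overlaps E230020D15Rik, Gm45074 and Gm45073 on its own strand. Whether the reads were counted by strand is not given in the sources used here.

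Promoters of the members are shown as a description, and a link between their motifs and the levels of the genes was not tested. RefSeq promoters (GRCm38.p6) were available for 6 of the 8 genes, and for Pdgfb and Cthrc1 none is printed. The 250 bases before the RefSeq start are given for 4 expressed members, 5′ to 3′ along the gene, with the entry nearest to the GENCODE 5′ end used where a gene has several. Capitals mark matches to the AP-1 motif TGACTCA and to the NFAT core GGAAA, searched on both strands (TGAGTCA and TTTCC are their reverse complements). AP-1 and NFATc1 are factors that RANKL signalling activates in the osteoclast lineage.
Sema4d (chr13:51756684-51756933, minus strand): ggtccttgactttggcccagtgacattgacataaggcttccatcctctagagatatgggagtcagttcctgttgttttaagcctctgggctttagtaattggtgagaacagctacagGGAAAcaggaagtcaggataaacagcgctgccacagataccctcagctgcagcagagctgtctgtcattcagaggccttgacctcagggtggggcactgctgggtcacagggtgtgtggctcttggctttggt
Sphk1 (chr11:116530850-116531099, plus strand): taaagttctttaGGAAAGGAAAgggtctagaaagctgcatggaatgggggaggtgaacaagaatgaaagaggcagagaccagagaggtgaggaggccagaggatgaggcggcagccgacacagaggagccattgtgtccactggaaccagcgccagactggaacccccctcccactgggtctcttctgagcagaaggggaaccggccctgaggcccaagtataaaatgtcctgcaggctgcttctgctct
Efnb2 (chr8:8661243-8661492, minus strand): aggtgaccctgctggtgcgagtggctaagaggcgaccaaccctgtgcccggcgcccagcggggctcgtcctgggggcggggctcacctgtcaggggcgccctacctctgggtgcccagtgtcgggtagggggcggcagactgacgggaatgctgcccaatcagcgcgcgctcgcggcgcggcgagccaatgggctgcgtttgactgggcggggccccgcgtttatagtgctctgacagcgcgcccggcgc
Lif (chr11:4257318-4257567, plus strand): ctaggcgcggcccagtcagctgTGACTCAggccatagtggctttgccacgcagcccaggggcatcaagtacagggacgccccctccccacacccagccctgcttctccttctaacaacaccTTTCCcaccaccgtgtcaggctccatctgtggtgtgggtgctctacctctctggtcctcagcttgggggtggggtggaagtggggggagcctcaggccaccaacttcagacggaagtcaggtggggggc

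The Lif window held an AP-1 match, its first base 228 bases before the start. Such a match was present in 1 of the 6 members, and 4.45% of 32536 RefSeq promoters of this length held one. The NFAT core was found in 4 of 6, namely Sema4d with 1 match, Sphk1 with 2, Ctf1 with 3 and Lif with 1, where 55.7% of all promoters held it. The E-box CACGTG or CATGTG, the second also read as CACATG on the other strand, was in 0 of 6 members and in 17.7% of all promoters. The windows of Efnb2 and Slit3 held none of these motifs. The Sema4d window lies 37064 bases from the 5′ end annotated by GENCODE, at a start annotated inside the gene, and nothing in the counts says which start was used.

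Whether loss of Elmo1 altered these transcripts was asked with limma on log2(normalized count + 1), fitted over all 14139 genes that passed the filter. None of the 6 tested members passed an adjusted p of 0.05, and 0 of 6 had an unadjusted p below it in this fit. With a term for the library sets described above, Sphk1 and Lif had an unadjusted limma p of 0.000272 and 0.016, and both adjusted values were 0.9999. With that term 411 of the 14139 genes had an unadjusted limma p under 0.05. Over the whole table limma without that term called 1 gene, Elmo1, or 0.00707%, with 133 genes under an unadjusted 0.05. On recovered reads edgeR and DESeq2 called 0 of the 6 members as well. In no tested member did the Elmo1-/- libraries lie apart from the Elmo1+/- libraries, against 0.941% of all tested genes. The fitted log2 fold changes lay below 0 for 5 of 6 members, against 7301 of the 14139 tested genes. These 5 members were correlated over the libraries, as given further on, so they are not independent observations. The median of the 6 was -0.17 (-0.07 with edgeR), against -0.00 for all tested genes. The 6 adjusted p-values were all 0.9999.

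Semaphorin 4D, the inhibitory ligand, was measured deeply and its means were close. The Elmo1-/- libraries 1 to 4 had 7799.9, 10165, 14008 and 15651 normalized counts of Sema4d, and the Elmo1+/- libraries 1 to 4 had 9525, 9303, 15388 and 13537. Libraries 3 and 4 were the high ones in both genotypes, and the genotypes overlapped. The means were 11906 ± 3575 and 11938 ± 3013 (SD, n = 4), and the log2 fold change was -0.02 (SE 0.25, 95% interval -0.58 to 0.54). The exact two-sided permutation test over the 70 arrangements of the libraries gave p = 0.943, the smallest p this design allows being 0.0286. Fitted with the library numbers as pairs, an assumption that no label gives, the same difference had an SE of 0.09.

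Efnb2 encodes ephrin-B2, a membrane ligand of EphB receptors. It had 133, 277, 586 and 633 normalized counts in the Elmo1-/- libraries 1 to 4 and 288, 281, 694 and 503 in the Elmo1+/- libraries. Elmo1-/- library 1 was the lowest of all, and otherwise the genotypes ran side by side. The log2 fold change was -0.26 (SE 0.51, 95% interval -1.42 to 0.90, exact permutation p = 0.714). On recovered reads it was -0.105 with edgeR and -0.116 with DESeq2. The limma-scale difference was -0.56 within libraries 1 and 2 and 0.04 within libraries 3 and 4.

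Pdgfb had 1694, 2706, 4962 and 5059.6 normalized counts in the Elmo1-/- libraries 1 to 4 and 2659.7, 2295, 4985 and 4773 in the Elmo1+/- libraries. The means, 3606 ± 1675 and 3678 ± 1397 (SD, n = 4), were closer than the spread within either genotype. The log2 fold change of -0.08 (SE 0.40, 95% interval -0.98 to 0.81) went with an exact permutation p of 0.971, and edgeR and DESeq2 both gave -0.03. Elmo1-/- was below Elmo1+/- in 2 of 4 same-numbered pairs.

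Lif, for the cytokine leukaemia inhibitory factor, had 199.6, 261, 704 and 707 normalized counts in the Elmo1-/- libraries 1 to 4 and 463, 389, 828 and 682 in the Elmo1+/- libraries. In libraries 1 and 2 both Elmo1-/- values were lower than both Elmo1+/- values, while in libraries 3 and 4 the genotypes overlapped. The share of all tested genes with such an order was not counted. The log2 fold change was -0.49 (SE 0.45, 95% interval -1.51 to 0.52, exact permutation p = 0.429), against -0.33 with edgeR. It was -0.89 within libraries 1 and 2 and -0.09 within libraries 3 and 4. The difference between these within-set values was not tested.

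Sphk1 had the largest fitted difference of the members. Its normalized counts were 62.4, 65.8, 233 and 182 in the Elmo1-/- libraries 1 to 4 and 132, 119.6, 265 and 353 in the Elmo1+/- libraries. Within each set of libraries both Elmo1-/- values lay below both Elmo1+/- values, an order whose share of all tested genes was not counted. Over all 8 libraries the genotypes of Sphk1 overlapped. The means were 135.8 ± 85.3 and 218 ± 112 (SD, n = 4), and the fitted log2 difference was -0.77 (SE 0.52, 95% interval -1.94 to 0.40, limma adjusted p = 0.9999, exact permutation p = 0.257). Within libraries 1 and 2 the difference was -0.96 and within libraries 3 and 4 it was -0.57.

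Elmo1-/- over Elmo1+/- ratios of Sphk1 in the same-numbered pairs were 0.471, 0.550, 0.879 and 0.516. All 4 were below 1, a pattern shown by 4.8% of the tested genes. The study placed Sphk1 in its own list of genes lower in Elmo1-/- cells, chosen on these same libraries, so its direction here is no independent evidence. Sphk1 also rests on few reads, 55 to 371 per library, and its antisense neighbour Gm29292 had 0 to 2 reads in a library.

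Cthrc1 was the only tested member with a fitted value above 0. It had 13.2, 31.1, 41.7 and 24.1 normalized counts in the Elmo1-/- libraries 1 to 4 and 18.4, 22.7, 22.8 and 27.6 in the Elmo1+/- libraries. The Elmo1-/- values spread to both sides of the Elmo1+/- values, and it had 14 to 50 reads per library. The log2 fold change was 0.16 (SE 0.33, 95% interval -0.59 to 0.91, exact permutation p = 0.686). It was 0.27 with edgeR and with DESeq2, and with limma it turned to -0.069 when Elmo1-/- library 3 was left out.

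**Figure D2:**
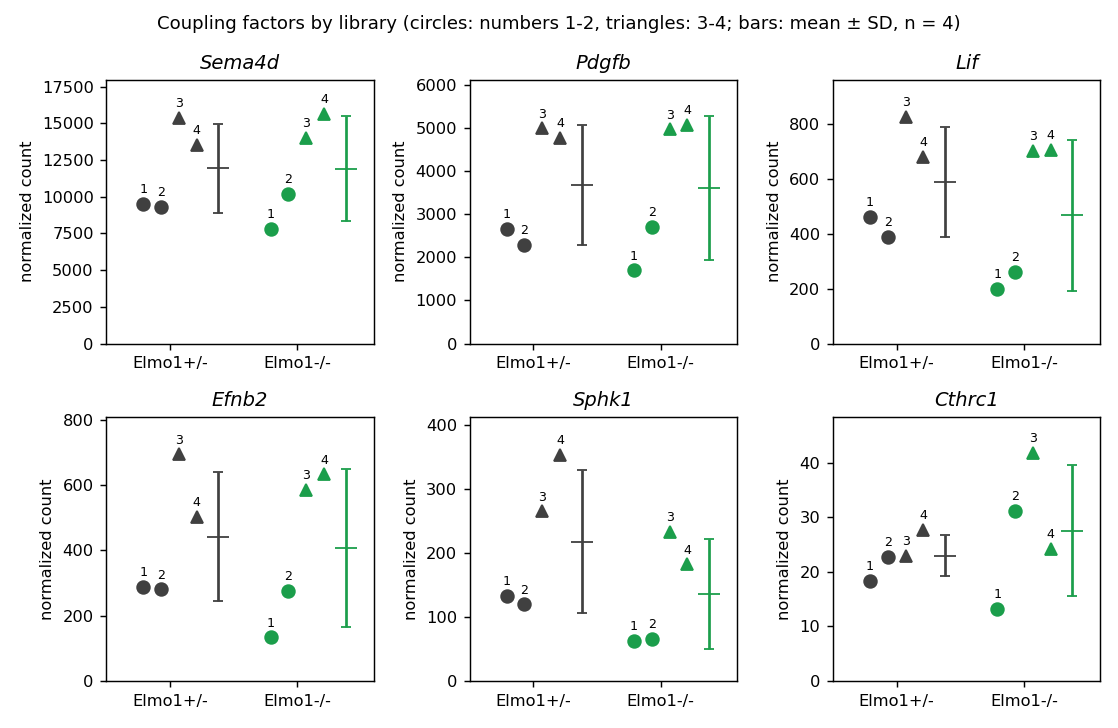
Normalized counts of the 6 expressed members in each library, numbered 1 to 4 within a genotype, from 0 on linear axes that differ between panels, with bars for the mean and SD of the 4 libraries. For all but Cthrc1 the triangles (libraries 3 and 4) lie above the circles (libraries 1 and 2), and for Sphk1 the Elmo1-/- points also lie below the Elmo1+/- points of the same set. The share of all tested genes with the genotype order of Sphk1 was not counted.

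**Figure D3:**
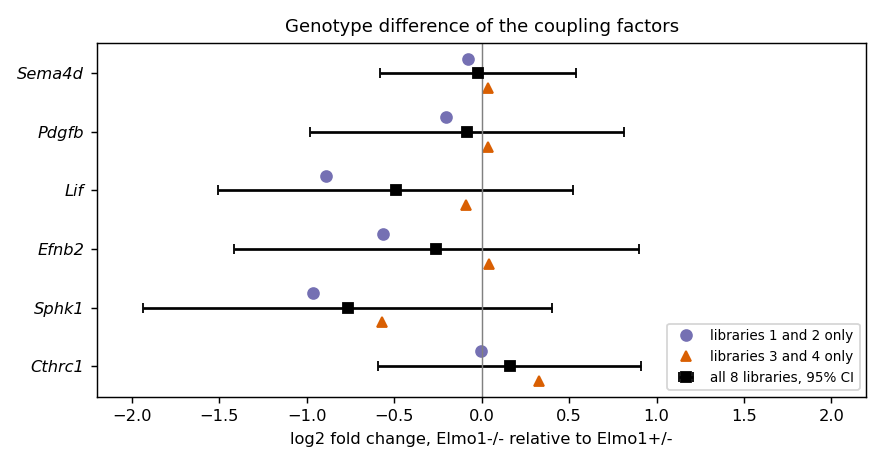
Log2 fold change of Elmo1-/- relative to Elmo1+/- for the 6 tested members, with the limma estimate and 95% interval from all 8 libraries (squares) and the difference within libraries 1 and 2 (circles) or 3 and 4 (triangles). All 6 intervals include 0, and Sphk1 (-0.96 and -0.57) and Lif (-0.89 and -0.09) are the members below 0 in both sets.

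The spread within a genotype followed the library numbers. The set is known from the first principal component of these same libraries and the members were chosen with earlier results at hand, so these values are a description with no test. In 5 of the 6 tested members all libraries numbered 3 and 4 lay above all libraries numbered 1 and 2, as they did in 18.1% of the tested genes. The exception among the members was Cthrc1. The reverse order, with all libraries numbered 3 and 4 below those numbered 1 and 2, held in 2241 of the 14139 tested genes. The count of members higher without overlap was 6 when Elmo1-/- library 2, the one nearest to the middle, was left out. It stayed at 5 when any other single library was. The share of all tested genes was not counted for these settings.

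Sphk1 had the largest ratio, with a mean in libraries 3 and 4 over that in libraries 1 and 2 of 2.72, followed by Efnb2 with 2.47, Lif with 2.23, Pdgfb with 2.11, Sema4d with 1.59 and Cthrc1 with 1.36. The ratio was larger among the Elmo1-/- than among the Elmo1+/- libraries for each of the 6, for example 3.06 against 1.77 for Lif and 1.65 against 1.54 for Sema4d. That difference was not tested, and its share of all tested genes was not counted. Elmo1-/- library 1 was the lowest of the 8 libraries for each of the 6, and the share of all tested genes was not counted here either. A low value in that library also raises the Elmo1-/- ratio, so these patterns are not separate. Elmo1-/- library 1 was also the farthest out on the first principal component, at 52.3 where the next on that side had 26.3. The 10 osteoclast markers, taken up next, summed to 450910 to 1173000 normalized counts in the Elmo1-/- and 589400 to 1091100 in the Elmo1+/- libraries.

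Markers of osteoclast maturation shifted the same way. All 10 osteoclast markers were higher without overlap in libraries 3 and 4, where 2562 of all 14139 tested genes were higher. The ratios were 2.87 for Ctsk and 2.37 for Acp5, which encodes tartrate-resistant acid phosphatase. They were 2.84 for Dcstamp, needed for cell fusion, and 1.50 for Nfatc1, the master transcription factor of the lineage. The summed level of the 10 markers was 450910 to 692450 normalized counts in libraries 1 and 2 and 1029100 to 1173000 in libraries 3 and 4. Of the 8 macrophage markers none was higher and 3 were lower without overlap, where 2241 of all 14139 tested genes were lower. Among these 3 markers was the mannose receptor gene Mrc1 with a ratio of 0.444. The next sums are of all 8 macrophage markers. They were 192910 to 225410 in libraries 1 and 2 and 163920 to 207670 in libraries 3 and 4.

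Between genotypes the median log2 fold change of the osteoclast markers was -0.08 and that of the macrophage markers 0.09. By limma 0 of these 18 genes were called, 0 had an unadjusted p under 0.05, and edgeR and DESeq2 called 0. The part of the cells that carry these markers in the levels of the coupling factors was not tested.

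**Figure D4:**
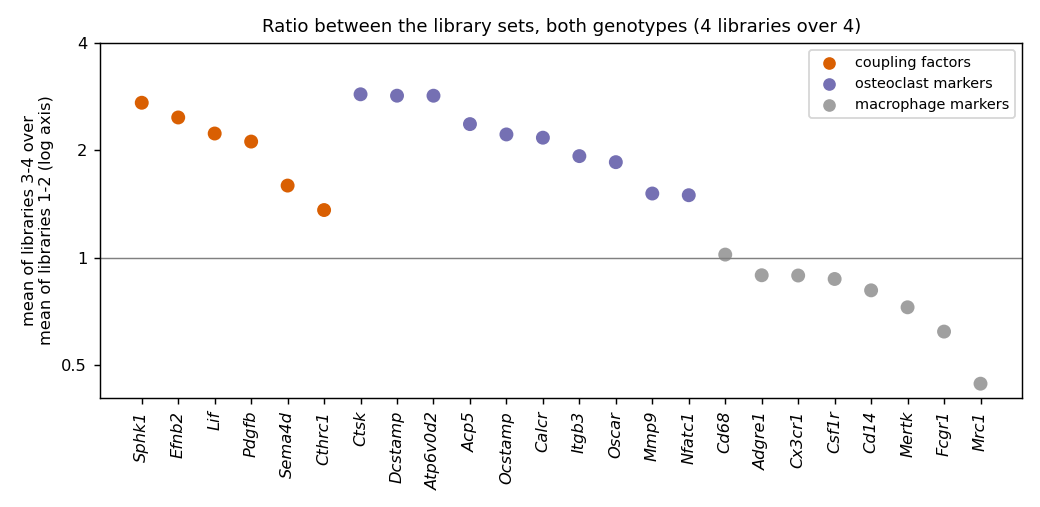
Ratio of the mean normalized count in the 4 libraries numbered 3 and 4 to that in the 4 numbered 1 and 2, on a log axis, for the 6 expressed coupling factors, 10 osteoclast markers and 8 macrophage markers. The coupling factors lie between 1.36 and 2.72, the osteoclast markers between 1.50 and 2.87, and the macrophage markers between 0.444 and 1.02.

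Other cell types that can make these factors were read from their markers. The 13 osteoblast and stromal markers, of which 8 passed the filter, summed to 1648.6 to 1961 normalized counts in libraries 1 and 2 and 1197 to 2034 in libraries 3 and 4, with none apart between the sets. Of all 14139 tested genes 2562 were higher and 2241 lower without overlap in libraries 3 and 4. Of 5 endothelial markers 3 passed, Kdr at 318 to 571 normalized counts, Pecam1 at 39.5 to 78.0 and Cdh5 at 22.8 to 51.8. Tek and Emcn did not pass and reached at most 10.7 and 3.34. The 5 summed to 466 to 660.3 in libraries 1 and 2 and 435 to 542 in libraries 3 and 4. Platelets carry much PDGF, and of 6 megakaryocyte and platelet markers Gp9, Gp1bb and Itga2b stayed at or below 7.36 while the chemokine gene Pf4 had 20378 to 27357 and Ppbp 1086 to 2477. The 6 summed to 21609 to 28469 in libraries 1 and 2 and 25494 to 29789 in libraries 3 and 4. Pf4, with a ratio of 1.03, made up most of this sum. Of the 3 that passed the filter 2, Gp1ba and Ppbp, were higher without overlap, against 2562 of all 14139 tested genes. Neutrophil markers, all 9 of which passed, summed to 13177 to 22647 in libraries 1 and 2 and 10389 to 13966 in libraries 3 and 4. Of the 9 only S100a8, with a ratio of 0.651, was lower without overlap, against 2241 of all 14139 tested genes. Of 7 lymphoid markers only Cd79b passed, with 157 to 409, and it too was lower without overlap in libraries 3 and 4 (ratio 0.563). None of the genes on these 5 lists was called between genotypes by limma, edgeR or DESeq2, and none had an unadjusted limma p under 0.05. The list medians of the log2 fold change were 0.05, 0.00, 0.03, -0.09 and -0.06 in the order named here.

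The members resembled each other over the libraries. Pearson's r of log2(normalized count + 1) over the 8 libraries ran from 0.823 to 0.986 among Sema4d, Sphk1, Efnb2, Pdgfb and Lif, and from 0.451 to 0.652 between Cthrc1 and these. The 8 points share the separation of the sets, so r is given as a description. Over all tested genes those most like Sema4d were Met (0.996), Itpripl2 and Twsg1, those most like Efnb2 were Itgav (0.997), Tiparp and Vcl, and those most like Pdgfb were Prkca (0.999), Dot1l and Pls1. For Lif they were Tfrc (0.997), Kidins220 and Wdr7, for Sphk1 Rmdn1 (0.986), Sytl1 and Tsc22d3, and for Cthrc1 Timm23 (0.989), 1700003E16Rik and Zfp560. Itgav encodes the integrin chain that pairs with the osteoclast marker Itgb3, and Tfrc the transferrin receptor.

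Sphk1 works within a pathway of synthesis, export, breakdown and reception, and 17 of 21 genes listed for it passed the filter. None was called between genotypes, the count being 0 by limma, edgeR and DESeq2 and 0 at an unadjusted limma p under 0.05, and the median log2 fold change was -0.04. The highest mean normalized counts were those of Sgpl1, for the lyase that degrades sphingosine 1-phosphate, Asah1, for acid ceramidase, and Cerk, for ceramide kinase, with log2 fold changes of -0.02 (SE 0.10), -0.00 (SE 0.07) and -0.04 (SE 0.05). Sphk1 had the largest absolute difference of the list.

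The second kinase, Sphk2, had 2506 to 3088 normalized counts and a log2 fold change of 0.05 (SE 0.08). Spns2, for the exporter of sphingosine 1-phosphate, and the receptor genes S1pr1 and S1pr2 were looked at after their values were seen. Spns2 had 681 to 2706 normalized counts, a genotype difference of -0.12 (SE 0.48) and a ratio of 2.44 between libraries 3 and 4 and libraries 1 and 2. S1pr1 ran the other way with 0.711, and S1pr2 had 0.909. Of the 17 tested genes 5 were higher and 4 lower without overlap in libraries 3 and 4, against 2562 and 2241 of all 14139 tested genes.

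Receptors for the 8 factors were listed as well, since the cultures could hold cells that receive these signals, and 13 of 21 passed the filter. None was called between genotypes (0 by limma, edgeR and DESeq2, 0 at an unadjusted limma p under 0.05), with a median log2 fold change of -0.03. The highest were Plxnb2 with 9625.9 to 17752 normalized counts, Nrp1 with 3922 to 5492 and Cd72, a receptor of semaphorin 4D on immune cells, with 2277 to 3619.5. Ephb3 had the largest absolute difference, -0.49 (SE 0.34), on 4.73 to 15.9 normalized counts.

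Some receptors of these ligands on osteoblast-lineage cells were at or near 0 and others were not, and those named here were chosen after their values were seen. Plxnb1 had 0 to 1.98 normalized counts, Ephb4 0.778 to 9.20, and Pdgfra 1.52 to 12.5, while Pdgfrb, also on the stromal list, had 21.9 to 38.6. Il6st, for the gp130 chain shared by the LIF and cardiotrophin-1 receptors, had 1001 to 1305. Its partner Lifr had 30.5 to 124.6, and its ratio between libraries 3 and 4 and libraries 1 and 2 was 0.342 where that of Lif was 2.23. Met, for the hepatocyte growth factor receptor that associates with plexins, had a ratio of 1.97.

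Release of semaphorin 4D and ephrin-B2 from the membrane and maturation of PDGF-B depend on proteases, of which 5 of 7 listed passed the filter. The highest were Mmp14, Adam17 and Adam10, with log2 fold changes of 0.15 (SE 0.13), 0.05 (SE 0.11) and 0.04 (SE 0.13). All 5 fitted values lay between 0.04 and 0.15 with a median of 0.05, and limma, edgeR and DESeq2 called 0 of them, with 0 at an unadjusted limma p under 0.05. Mmp14, for a membrane-bound collagenase, had 19878 to 28342 normalized counts.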

How the data were processed

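RNA of 8 osteoclast cultures, 4 Elmo1-/- and 4 Elmo1+/-, was sequenced as paired reads of 75 bases from TruSeq mRNA libraries. The submitters' notes name FastQC, STAR, featureCounts and DESeq2, and no source used here gives the genome build, annotation or strand setting. The authors deposited 1 table of signal values, which are read counts divided by the DESeq2 size factor of each library. All values were whole multiples, within 0.01, of what 1 read is worth, so reads could be recovered. The authors' own fold changes and p-values in the same table were not used. Of 46517 gene identifiers 46005 were named from GENCODE M21, and 512 were not.

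Values were tested as log2(normalized count + 1) with limma 3.58.1 (trend, robust) in R 4.3.3 on the 14139 genes that reached 10 or more in 4 or more libraries. P-values were adjusted over all of these genes by Benjamini-Hochberg and read at a threshold of 0.05. Single genes also had an exact two-sided permutation test. Alternatives were edgeR 4.0.16 and DESeq2 1.42.0 on recovered reads, TMM and equal-total scaling, no filter, a minimum of 50, pseudocounts of 0.5 and 8, each library left out, a replicate block and a term for library sets. The set counts were added after seeing the data. Scripts were tested on simulated counts. The statistics cover the spread between mice, and intervals of reads cover counting error only.

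Deviations of same-numbered Elmo1-/- and Elmo1+/- libraries from their genotype means had r of 0.704, 0.156, 0.598 and 0.520. Libraries of other numbers in the same set had r of 0.0259 to 0.691. Elmo1-/- library 4 had a higher r with Elmo1+/- library 3 (0.614) than with Elmo1+/- library 4. These values follow the sets and do not tell pairs by number apart from them. Pairing by number was therefore an assumption that neither a label nor this check bears out.

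The members and all gene lists were chosen with earlier results of these data known. Named were the 8 members, Elmo1, of each pathway list the genes called, the 3 with the highest mean and the 1 with the largest absolute log2 fold change, and for each tested member the 3 genes with the highest Pearson's r. Genes outside this rule are said to be chosen after their values were seen, other than markers. A further marker gene is not reported here.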

Additional observations from a re-analysis of the deposited data

How the results depend on the processing

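With the other tools, scalings, filters and pseudocounts tried, and with a term for libraries numbered 1 and 2 against 3 and 4, 0 members were called, as when each library was left out. The number of all genes called was 1 except 2 with DESeq2 and 2 without Elmo1+/- library 2. Leaving out each library in turn, it ran from 1 to 2. Leaving out 1 library moved the log2 fold change of Sema4d from -0.17 to 0.16, that of Pdgfb from -0.29 to 0.23 and that of Efnb2 from -0.56 to 0.19, lowest without Elmo1-/- library 4 and highest without Elmo1-/- library 1. Cthrc1 ran from -0.069 without Elmo1-/- library 3 to 0.46 without Elmo1-/- library 1. Sphk1 ran from -1.10 to -0.47 and Lif from -0.76 to -0.16, with no change of sign. The lowest adjusted p of a member in any of these fits was 0.937, for Sema4d, Sphk1, Pdgfb and Cthrc1 without Elmo1-/- library 1. With a minimum of 50 Cthrc1 was not tested. The order of the members by level was the same with the longest transcript as with the union of exons, and without each library.

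With the replicate block, which pairs same-numbered libraries, 0 members were called and no other call changed. The value of Sphk1 was again -0.77, with an SE of 0.15, an unadjusted limma p of 0.000596 and an adjusted p of 0.9998. With the term for the sets its unadjusted limma p was 0.000272 and its adjusted p 0.9999. Over all 14139 genes 389 had an unadjusted limma p under 0.05 with the block and 411 with the term for the sets. For Lif the unadjusted limma p was 0.301 without either term, 0.0521 with the block and 0.016 with the term for the sets. The SE of Sema4d fell from 0.25 to 0.09 with the block. On recovered reads the values of Efnb2 (-0.105 with edgeR, -0.116 with DESeq2), Pdgfb (-0.0294 and -0.0301), Sema4d (-0.0055 and -0.0054), Cthrc1 (0.266 and 0.267) and, with edgeR, Lif (-0.326) differed from limma by over 1.5 times, without a change of direction. Read depth did not allow a test of Slit3 and Ctf1.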

Other observations

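Of 27 further genes listed as signals between bone cells, 15 passed the filter and 12 did not. Bmp4, Sost and Dkk1 had no read in any library, and Wnt10b, Wnt10a, Wnt11, Bmp6 and Tnfsf11 reached at most 2.50 normalized counts. The highest levels were those of Lgals3, for galectin-3, C3, for complement component 3, and Creg1, with mean normalized counts of 58743, 23192 and 20052. Their log2 fold changes between Elmo1-/- and Elmo1+/- were -0.06 (SE 0.14), 0.10 (SE 0.31) and -0.10 (SE 0.10). The largest difference of the list was that of Tnfrsf11b, the gene of the RANKL decoy receptor osteoprotegerin, at -0.28 (SE 0.78). None of the 15 was called by limma, edgeR or DESeq2 and 0 had an unadjusted limma p under 0.05. Their median log2 fold change was -0.03 with limma and 0.04 with edgeR, so its sign is not settled.

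Chosen after their values were seen, Sema3a and Tnfrsf11b had ratios of 3.01 and 3.20 between libraries 3 and 4 and libraries 1 and 2, larger than that of any of the 8 coupling factors, while C3 had 0.575. Of the 15 genes 3 were higher and 1 lower without overlap in libraries 3 and 4, against 2562 and 2241 of all 14139 tested genes.

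The ratios of relatives of the coupling factors differed from family to family. Of 22 relatives listed, 13 passed the filter. Of these, 1 was higher and 4 were lower without overlap in libraries 3 and 4, against 2562 and 2241 of all 14139 tested genes. Sema4a, Sema4b and Sema4c had ratios of 0.642, 0.746 and 0.779 where Sema4d had 1.59, and Pdgfa had 0.683 where Pdgfb had 2.11. Efnb1 was the relative that was higher, with 1.73 beside 2.47 for Efnb2. Efnb3 had 2.39 and Slit2 1.53, both with overlap between the sets. Sphk2 had 0.961 beside 2.72 for Sphk1. Among the cytokines of the interleukin-6 family, Il6, Clcf1 and Osm had 0.987, 0.977 and 0.705 where Lif had 2.23. These are values of the same 8 libraries with no test. Between genotypes the median log2 fold change of the relatives was -0.00, with 0 of 13 called by limma, edgeR or DESeq2 and 0 at an unadjusted limma p under 0.05. The largest was Efnb3 with 0.58 (SE 0.56) on 5.52 to 32.7 normalized counts, and those with the highest mean normalized counts, Sema4a, Sphk2 and Pdgfa, had 0.08 (SE 0.23), 0.05 (SE 0.08) and 0.13 (SE 0.20).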
